A study of Homo sapiens with 2 samples.

Results

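Long noncoding RNAs were compared in hTERT-RPE1, an established line of human retinal pigment epithelium made immortal by telomerase, after transfection with a miR-129-3p oligo or a control oligo. The genes described here were chosen by name and by signal: a probe set had to carry 1 gene symbol only, which starts with LINC or SNHG and a number or is one of 8 fixed names (MIR22HG, MIR17HG, MIR31HG, MIR155HG, NEAT1, MALAT1, GAS5 and DANCR), and had to reach a signal of 100 on either array. Of 856 such genes, 166 passed the signal limit, with 220 of 1114 probe sets, against 12770 named genes at the limit out of 19775 in all. They comprised 156 LINC genes, 7 SNHG genes, and MALAT1, DANCR and MIR31HG. The groups were cells given a miR-129-3p oligo for 72 h, and cells given a control oligo for the same time with the same lipid reagent, both in medium with 10% fetal bovine serum and hygromycin B. Each group held 1 Affymetrix array made from 100 ng of total RNA, so replicate error is unknown, no difference was tested, and every difference is between these 2 arrays.

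Long noncoding RNAs are transcripts that resemble messenger RNAs in being capped and often spliced, but encode no known protein. LINC is a systematic name for genes that lie between coding genes, most of them with no assigned role. SNHG genes host small nucleolar RNAs, which are cut from their introns and guide chemical modification of ribosomal and spliceosomal RNA, while the spliced exons of several hosts start with a pyrimidine tract, are scanned by ribosomes and are removed by nonsense-mediated decay. MIR host genes carry microRNA hairpins that are cut from the primary transcript, so a host probe set reads what is left of the host and not the mature microRNA. MALAT1 is an abundant nuclear RNA of the splicing speckles, and DANCR is a small nucleolar RNA host first described as holding progenitor cells in an undifferentiated state.

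The transfected microRNA and the microRNAs of 2 member genes, the hosts DANCR and MIR31HG, are shown with the seed, bases 2 to 8, in capitals, from RefSeq (GRCh38.p14). The labels do not say which of the 2 human miR-129-3p forms the oligo matched; these have the same seed and are identical at 21 of 22 bases. miR-31-5p is encoded within MIR31HG, and miR-4449 within DANCR; neither shares the seed of miR-129-3p. LINC02042 is the other member with a microRNA gene inside; it holds MIR9900 and read 102 with miR-129-3p and 88.0 in control (0.18).
miR-129-1-3p: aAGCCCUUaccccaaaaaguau
miR-129-2-3p: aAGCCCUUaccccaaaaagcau
miR-31-5p: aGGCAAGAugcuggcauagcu
miR-4449: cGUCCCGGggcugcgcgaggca

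Promoters are shown for the 4 DANCR and SNHG genes that differed by more than 2-fold between the arrays, 2 in each direction, from 250 bases before to 50 after the RefSeq gene start on GRCh38.p14. Capitals mark the CCAAT box, read as CCAAT or, on the other strand, ATTGG. DANCR (chr4:52712144-52712443, plus strand) held 5 matches, SNHG19 (chr16:2155309-2155608, minus strand) 3, SNHG33 (chr3:183447358-183447657, plus strand) 2 and SNHG28 (chr1:159854988-159855287, minus strand) 0.
DANCR: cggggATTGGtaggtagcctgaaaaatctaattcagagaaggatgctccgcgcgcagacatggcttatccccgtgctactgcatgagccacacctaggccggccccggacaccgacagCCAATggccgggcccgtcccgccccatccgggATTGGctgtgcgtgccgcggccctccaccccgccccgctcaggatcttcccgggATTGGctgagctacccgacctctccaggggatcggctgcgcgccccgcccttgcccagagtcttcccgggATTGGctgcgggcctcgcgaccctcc
SNHG19: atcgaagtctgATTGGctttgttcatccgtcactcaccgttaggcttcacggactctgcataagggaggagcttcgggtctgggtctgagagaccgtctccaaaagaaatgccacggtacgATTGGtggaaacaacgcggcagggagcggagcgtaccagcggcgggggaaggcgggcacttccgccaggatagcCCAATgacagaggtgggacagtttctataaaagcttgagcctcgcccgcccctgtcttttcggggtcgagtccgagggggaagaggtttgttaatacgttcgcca
SNHG33: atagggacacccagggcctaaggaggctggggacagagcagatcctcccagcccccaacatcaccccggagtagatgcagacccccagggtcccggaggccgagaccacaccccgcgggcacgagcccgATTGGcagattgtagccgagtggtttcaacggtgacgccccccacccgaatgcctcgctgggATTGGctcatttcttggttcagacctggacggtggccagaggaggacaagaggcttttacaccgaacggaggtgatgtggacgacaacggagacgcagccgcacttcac
SNHG28: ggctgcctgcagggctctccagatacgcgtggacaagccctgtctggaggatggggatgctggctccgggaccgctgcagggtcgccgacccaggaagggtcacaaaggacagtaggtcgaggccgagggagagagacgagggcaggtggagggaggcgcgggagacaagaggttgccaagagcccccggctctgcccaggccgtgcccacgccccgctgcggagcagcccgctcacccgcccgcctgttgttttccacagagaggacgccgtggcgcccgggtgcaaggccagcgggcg

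On the array table as a whole, the median signal over 54613 probe sets was 98.0 with miR-129-3p and 96.5 in control, and 49.4% and 48.9% of probe sets reached 100. The epithelial and mesenchymal markers of this line gave strong signals, as for VIM, the gene of the intermediate filament vimentin, at 16201 with miR-129-3p and 18474 in control, and KRT8, a keratin, at 4918 and 6138. Genes of the differentiated pigment epithelium did not reach 100 on either array (RPE65, RLBP1, TYR and BEST1). Among markers of other cell types, PTPRC, CD3E, ALB and SYN1 also stayed under 100 on both arrays, while HBB read 149 with miR-129-3p and 162 in control, PECAM1 270 and 230, and GFAP 97.9 and 128; their part in the results was not tested. Of 19 interferon-stimulated genes at the limit, 19 were higher by 2-fold or more in the miR-129-3p cells, and of 20 genes of the G2 and M phases 18 were lower by that much. Over all named genes at the limit, 7.85% were higher and 4.59% lower by that much.

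Most of the noncoding RNA genes gave similar signals on the 2 arrays. Each difference is the miR-129-3p value less the control value on the log2(signal + 16) scale, which understates differences of dim genes, and a gene is called where this reaches 2-fold, a difference of 1. Of the 166 genes, 5 were called higher with miR-129-3p (3.01%), where 7.85% of all named genes at the limit were called higher, and 9 were called lower (5.42%), where 4.59% of all named genes were. The signal limit acts on the same 2 arrays, so these counts describe the genes chosen and carry no test. The 9 lower genes were 7 LINC genes, SNHG19 and DANCR, and the 5 higher were 3 LINC genes, SNHG28 and SNHG33.

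**Figure D1:**
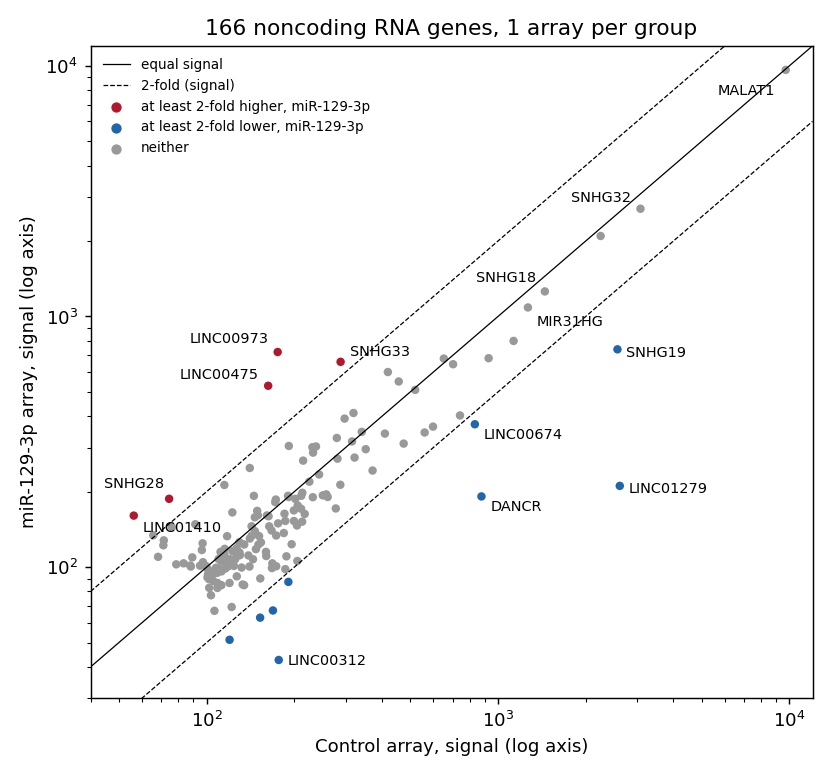
Signal of each of the 166 noncoding RNA genes on the miR-129-3p array (vertical, log axis) against the control array (horizontal, log axis), 1 point per gene. Red points were called higher and blue points called lower on the log2(signal + 16) scale; the dashed lines mark 2-fold on the plain signal. Most points lie near the line of equal signal, with LINC01279, DANCR and SNHG19 the farthest below it among the bright genes.

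The median difference of the 166 genes was -0.16, against 0.03 over all named genes, and 118 of the 166 were below 0. The noncoding genes were also dimmer, with a median signal of 134 with miR-129-3p and 153 in control, where all named genes had 554 and 508. Signal level moves with the difference: all named genes of 100 to 150 on the brighter array had a median of -0.08, beside -0.11 for the 71 noncoding genes in that range. Between 150 and 300 the medians were -0.25 for 60 noncoding genes and 0.01 for all named genes, and between 300 and 1000 they were 0.01 for 27 and 0.09. All 8 noncoding genes at 1000 or more on either array were below 0, with a median of -0.21, where all named genes of that level had a median of 0.07. The part of signal level in the shift was not tested.

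**Figure D2:**
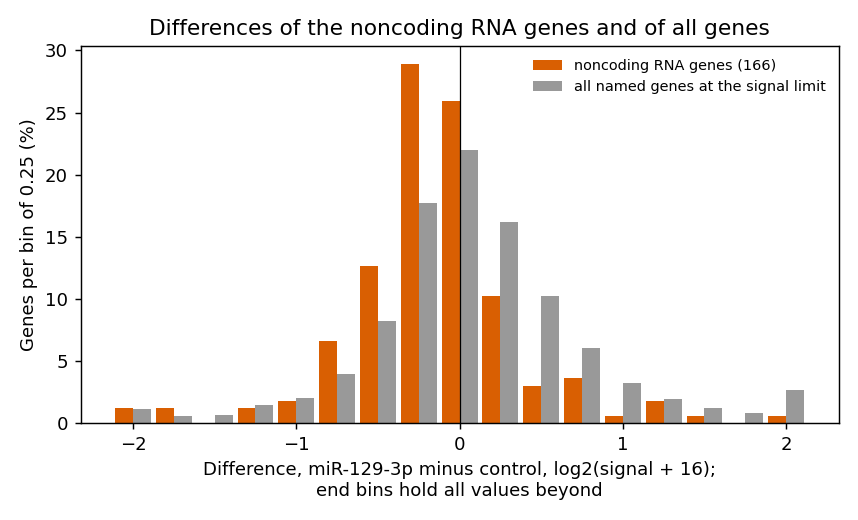
Percentage of genes (vertical) by difference between the arrays (horizontal, log2(signal + 16), bins of 0.25) for the 166 noncoding RNA genes and for all 12770 named genes at the signal limit. The noncoding genes gather between -0.5 and 0, and fewer of them lie at or above 1 than of all genes (3.01% against 7.85%).

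How a gene passed the limit fixes part of its direction. Of the 166 genes, 114 reached 100 on both arrays, 18 on the miR-129-3p array only and 34 on the control array only. Among the 114, 3 were at least 2-fold higher (SNHG33, LINC00475 and LINC00973), or 2.63%, and 4 lower (LINC00674, SNHG19, DANCR and LINC01279), or 3.51%. With 100 required on both arrays, 6.18% of all named genes were called higher and 4.31% lower. Just inside the limit were LINC01743 (100.6 with miR-129-3p and 88.3 in control), LINC00210 (91.0 and 100.8) and LINC02910 (98.4 and 101.0). Just outside it were LINC00673 (99.2 and 85.0), LINC00515 (89.5 and 97.5) and LINC03086 (85.1 and 97.3).

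The snoRNA host genes held members at both ends of the range. DANCR had a signal of 192 on the miR-129-3p array, against 878 on the control array, a difference of -2.11 (4.31-fold lower on that scale). DANCR is represented by a single probe set, and RefSeq places SNORA26 and the miR-4449 hairpin within the gene. SNHG19, the host of SNORD60, read 739 with miR-129-3p and 2570 in control, a difference of -1.78 (3.42-fold lower). Its only probe set is of the _x_at type, whose probes can also match other transcripts, and how far they do was not tested.

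SNHG33 differed in the opposite direction. This gene, formerly named LINC00888, holds 3 snoRNA genes in RefSeq, among them SNORA63D and SNORA63E. Its brighter probe set read 659 with miR-129-3p and 288 in control, and the other read 494 and 206. The 2 differences, 1.15 and 1.20, lie closer together than probe sets of 1 gene do in general, for which the pooled SD was 0.37 over 6179 genes. SNHG28 read 187 with miR-129-3p and 74.4 in control (1.17), so that its control signal was under the limit; with signals under 100 set to 100 its difference was 0.81.

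The remaining SNHG genes differed little. SNHG32, which carries SNORD48 and SNORD52, read 2690 with miR-129-3p and 3083 in control (-0.20). SNHG18, host of SNORD123, read 1259 and 1448 (-0.20). SNHG17, which holds the 4 genes SNORA71A to SNORA71D and 1 more snoRNA gene, read 645 with miR-129-3p and 701 in control on one probe set, and 407 and 461 on the other (-0.12 and -0.17). SNHG24, a name that RefSeq now gives as a synonym of the imprinted noncoding gene MEG8, read 193 and 190 (0.02). Over the 7 SNHG genes the median was -0.12, with 2 called higher and 1 lower, where 7.85% and 4.59% of all named genes were. With 7 genes, each call weighs heavily on such a share. Without probe sets ending in _x_at or _s_at, which leaves out SNHG19 and SNHG32 and takes the other probe set of SNHG17, the median was 0.016.

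**Figure D3:**
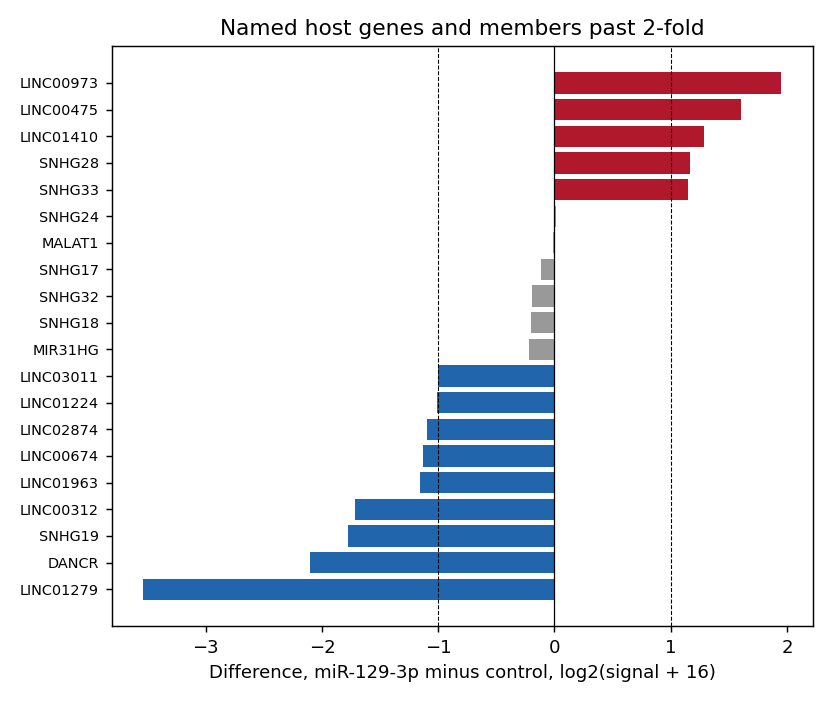
Difference between the arrays (horizontal, miR-129-3p minus control, log2(signal + 16)) for the SNHG genes, MALAT1, MIR31HG, DANCR and the LINC genes past 2-fold, 20 genes in all, 1 bar each. Dashed lines mark 2-fold. SNHG33 and SNHG28 stand above 1 while SNHG19 and DANCR stand below -1, and 4 of the 7 SNHG genes lie between -0.20 and 0.02.

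The start of a host transcript was read from the RefSeq sequences, because hosts such as these are known for a pyrimidine tract there. The letters CTTTT were searched on the sense strand from 10 bases before to 15 after the gene start, and were found in 3 of 6 SNHG genes with a sequence, in 8 of 126 member genes (6.35%) and in 3.07% of 27305 promoters. The 3 windows with a match are those of SNHG19 (chr16:2155329-2155368, minus strand), SNHG32 (chr6:31834906-31834945, plus strand) and SNHG33 (chr3:183447598-183447637, plus strand), with CTTTT in capitals. SNHG17 (chr20:38435299-38435338, minus strand) is shown beside them and has none in that window. DANCR, a snoRNA host without an SNHG name, had none either. Each stretch shown begins 10 bases before the gene start. CTTTT begins at that start in SNHG19 and SNHG32, but lies wholly before it in SNHG33. The 3 genes with the letters in the window differed by -1.78, -0.20 and 1.15, in that order.
SNHG19: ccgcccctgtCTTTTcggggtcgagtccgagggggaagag
SNHG32: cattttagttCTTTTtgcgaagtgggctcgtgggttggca
SNHG33: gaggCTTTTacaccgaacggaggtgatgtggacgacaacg
SNHG17: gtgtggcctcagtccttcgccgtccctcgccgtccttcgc

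The CCAAT box was found in 5 of the 7 promoters of members called lower and in 1 of 2 of those called higher, where 45.2% of the 126 member promoters and 35.7% of all 27305 held it. Of the 6 SNHG promoters 2 held it (33.3%). Of the 5 lower genes with the box, DANCR and SNHG19 reached the signal limit on both arrays. LINC00312, LINC01224 and LINC03011 reached it on the control array only. With signals under the limit set to the limit, these last differed by -0.73, -0.23 and -0.83, in that order, short of 2-fold. The core of the interferon-stimulated response element, 2 runs of GAAA set 2 bases apart on either strand, was found in 1 of the 126 member promoters (0.794%), against 3.66% of all promoters. TTTGAA on either strand, the core of the cell cycle element CHR, was found in 7.94% of member promoters and 15.5% of all. The motifs were counted separately, so their matches may overlap. Matches and their absence describe letters in these windows only.

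MALAT1 had the strongest signal of the 166 genes and the most probe sets. Its brightest probe set by mean read 9631 with miR-129-3p and 9711 in control, a difference of -0.01. Over its 12 probe sets the signals ran from 262 to 9631 with miR-129-3p and from 352 to 9812 in control, and the differences from -0.56 to 0.48, with a median of -0.35. Of the 12, 10 were below 0 and 2 above, so the choice of probe set moves the value by more than the difference itself, and no probe set reached 2-fold.

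MIR31HG, the host of the miR-31 hairpin, read 1086 with miR-129-3p and 1267 in control (-0.22). IFNE, a type I interferon gene that RefSeq places inside MIR31HG on the same strand, read 527 with miR-129-3p and 467 in control (0.17). MIR17HG, the host of the miR-17 to miR-92 cluster, and GAS5, a snoRNA host that accumulates in growth-arrested cells, each had 1 probe set of a single symbol, and both stayed under the limit: MIR17HG at 8.57 with miR-129-3p and 19.5 in control, and GAS5 at 72.0 and 63.1. GAS5 has 4 more probe sets and MIR17HG 1 more that carry several symbols, which were not read, so these values do not give the level of either gene. MIR22HG, MIR155HG and NEAT1 had no probe set with a single symbol and were not analysed here. The same holds for 13 of the 24 SNHG names on the array, and 4 of the other 11 stayed under the limit.

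Among the LINC genes, LINC01279 stood farthest from the rest. It read 211 with miR-129-3p and 2618 in control, a difference of -3.54 (11.6-fold lower on that scale). RefSeq now lists this name as a synonym of CCDC80, which encodes a secreted protein of the extracellular matrix. The 3 probe sets annotated to CCDC80 read 879 and 2797, 1092 and 3403, and 133 and 539 with miR-129-3p and in control, with differences of -1.65, -1.63 and -1.90. All 4 probe sets were lower with miR-129-3p, and the one named LINC01279 by the most.

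LINC00312 overlaps a coding gene. It read 42.6 with miR-129-3p and 177 in control (-1.72) on the probe set above the limit, and 44.0 and 47.4 (-0.08) on its other one, which is under it. With signals under 100 set to 100 the first difference was -0.73, short of 2-fold. In RefSeq the gene lies at the end of LMCD1, which encodes a LIM domain protein, on the same strand. The brightest LMCD1 probe set read 209 with miR-129-3p and 1045 in control (-2.24), and the other one at the limit read 33.2 and 107 (-1.32). Whether the probe sets of LINC00312 and of LINC01279 read the coding transcripts was not tested.

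**Figure D4:**
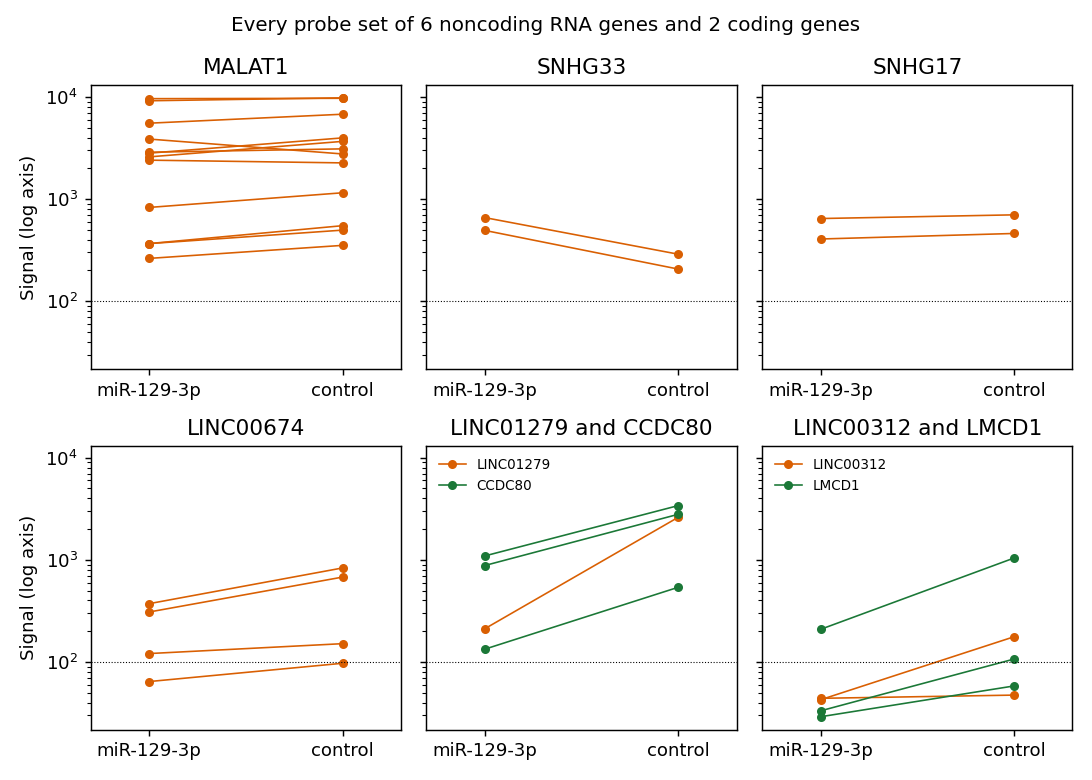
Signal (vertical, log axis) of every probe set of 6 noncoding RNA genes (orange) on the miR-129-3p array (left) and the control array (right), 1 line per probe set, with the coding genes CCDC80 and LMCD1 in green beside LINC01279 and LINC00312. The dotted line is the signal limit of 100. The 2 lines of SNHG33 and all lines of LINC00674 and CCDC80 run the same way, while the 12 of MALAT1 run in both directions.

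Of the other 5 LINC genes called lower, LINC00674 was the only one above the limit on both arrays. LINC00674 read 372 with miR-129-3p and 833 in control (-1.13), and its other 3 probe sets differed by -1.10, -0.29 and -0.50, the last of them under the limit. LINC02874 read 62.9 with miR-129-3p and 153 in control (-1.10), and its second probe set, under the limit, differed by -1.10 as well. LINC01963 (67.2 and 169, -1.15), LINC01224 (51.3 and 120, -1.01) and LINC03011 (87.3 and 191, -1.002) rest on 1 probe set each. With all signals under 100 set to 100, the differences of LINC01963, LINC02874, LINC03011 and LINC01224 were -0.67, -0.54, -0.83 and -0.23, so none of these 4 is known to be 2-fold lower above that level.

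The 3 LINC genes called higher differed in how well their probe sets agree. LINC00973 read 722 with miR-129-3p and 175 in control on its only probe set, a difference of 1.95 (3.85-fold higher). LINC00475 read 529 with miR-129-3p and 163 in control on an _x_at probe set (1.61), but 85.33 and 128.96 (-0.52) and 42.9 and 42.0 (0.02) on its others. LINC01410 read 161 with miR-129-3p and 56.3 in control (1.29), and 46.6 and 53.6 (-0.15) on a second probe set under the limit; its first difference was 0.61 with signals under 100 set to 100 and 0.90 with 64 added, short of 2-fold. LINC00973 was thus the only one of the 3 with no probe set going the other way, and it has just 1.

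Bright LINC genes outside these calls were LINC02256, at 2094 with miR-129-3p and 2250 in control (-0.10), LINC00621 at 799 and 1131 (-0.49), and LINC01231 at 682 and 929 (-0.44). With LINC02256 and LINC01279 these form the 4 brightest LINC genes by mean log2 signal. LINC02256 and LINC00621 are each represented by an _x_at probe set. Over all 156 LINC genes the median was -0.16, 111 were below 0, and 118 lay within 0.5 of 0 in either direction.

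Where a gene had several probe sets at the limit, they did not always go one way. Of 30 such genes, 16 had all their probe sets on the same side of 0, and the pooled SD of the differences within a gene was 0.35. In LINC00662 all 4 probe sets were below 0, from -0.77 to -0.03, and in LINC00205 its 5 probe sets lay between -0.18 and 0.07. In LINC01000 both were higher, by 0.50 and 0.52. Of the 14 called genes, 11 rest on 1 probe set at the limit. Among these, LINC00312, LINC01410 and LINC02874 each have a second probe set under the limit. It differed by only -0.08 in LINC00312 and by -0.15 in LINC01410, against the call, while that of LINC02874 matched its first. The other genes of the 11 have no second probe set that carries their symbol alone.

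Location in the genome was taken from the RefSeq gene table for the 163 genes whose gene ID it holds. A snoRNA gene lay inside 9 of them, of which 3 were called higher (SNHG33, SNHG28 and LINC00475) and 2 lower (DANCR and SNHG19), with a median difference of -0.20, where 7.85% and 4.59% of all named genes were called. Of these, LINC00475 stood at 0.55 as the mean of its probe sets, and SNHG28 reached the signal limit on the miR-129-3p array only. Whether the 9 genes depart from all named genes was not tested. A protein-coding gene overlapped 16 of the 163 genes, of which 2 were called higher and 1 lower, with a median of -0.02, beside -0.16 for the 147 with none. The 2 called higher, SNHG28 and LINC01410, reached the signal limit on the miR-129-3p array only. LINC00312, the 1 called lower, reached it on the control array only. With signals under the limit set to the limit, SNHG28, LINC01410 and LINC00312 differed by 0.81, 0.61 and -0.73, all short of 2-fold. In 8 pairs of a member and an overlapping coding gene at the limit, 3 had the same sign. LINC00847 (391 with miR-129-3p and 298 in control, 0.38) and ZFP62 (343 and 638, -0.86), on opposite strands, differed in opposite directions. So did LINC01089 (0.29) and SETD1B (-0.63), the strand of SETD1B not being known here. LINC00312 (-1.72) and LMCD1 (-2.24), on the same strand, differed in the same direction. With the coding genes within 5 kb included, 15 of 30 pairs had the same sign; beside SNHG19, TRAF7 read 2290 with miR-129-3p and 1747 in control (0.39) on its brightest probe set but 216 and 304 (-0.46) on another, and RAB26 read 124 and 140 (-0.15).

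Proteins that act with these RNAs were counted from lists, beside 7.85% of all named genes called higher and 4.59% called lower. Of 19 paraspeckle proteins, which assemble on noncoding RNA in the nucleus, 0 were called in either direction (median -0.16), with SFPQ at 1984 with miR-129-3p and 3702 in control (-0.89) and PSPC1 at 987 and 725 (0.44) at the ends; without _x_at and _s_at probe sets the median was 0.10. Of 19 nuclear speckle proteins 0 were called (median -0.11), with the splicing factor SRSF1 at -0.64 and the splicing kinase CLK1 at 0.73; as means of all probe sets their median was 0.049. None of 14 core proteins and assembly factors of snoRNPs was called (median 0.08), with RUVBL1 at -0.36 and SHQ1 at 0.44. Of 18 coding genes that host snoRNAs 0 were called (median -0.14), with CCT6A at -0.60 and RABGGTB at 0.37; without _x_at and _s_at probe sets the median was -0.27.

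Of 12 genes of nonsense-mediated decay, which degrades many spliced snoRNA hosts, 1 was called higher (8.33%) and 0 lower, beside 7.85% and 4.59% of all named genes. Of the 12, 9 were above 0, and the median was 0.38. XRN1, the exonuclease that degrades decapped RNA, read 2316 with miR-129-3p and 825 in control (1.47). UPF2, a core factor of the pathway, read 2012 and 1032 (0.95), under the 2-fold limit on this scale. RBM8A, of the exon junction complex, was lowest at -0.35.

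Of 45 other named long noncoding RNAs listed, all outside the rule, 26 were at the limit. Of these 2 were called higher (7.69%) and 1 lower (3.85%), near the 7.85% and 4.59% of all named genes. Their median was -0.21. HCP5, a noncoding gene of the major histocompatibility region, read 1217 with miR-129-3p and 97.9 in control (3.44). PSMB8-AS1, on the opposite strand to the immunoproteasome gene PSMB8, read 550 and 120 (2.06). MIAT, a nuclear noncoding RNA, read 267 with miR-129-3p and 796 in control (-1.52), and OIP5-AS1 651 and 1283 (-0.96). The 2 differences of HCP5 and PSMB8-AS1 exceeded that of every one of the 166 genes, of which LINC00973 was highest at 1.95. Of 17 targets of p53 at the limit, 8 were called higher (47.1%) and 2 lower (11.8%), with a median of 0.88 and ZMAT3 lowest at -1.22. GDF15 was highest, at 462 with miR-129-3p and 14.4 in control; its control signal is far under the limit, and its difference was 3.97, or 2.04 with signals under 100 set to 100.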

How the data were processed

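Total RNA of 1 culture per group was hybridised to Affymetrix 3' arrays. Each deposited value is an intensity of 1 probe set on a linear scale. Per the submitters' processing notes both MAS5 and RMA were used, and which one made the table is not said; scaling, background correction and detection calls are not given in the sources used here. How background was handled bears most on signals near 100.

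Groups were taken from the genotype label. Of 54613 probe sets, 41091 had 1 symbol in the platform annotation, 1801 had several and 11721 none; only the first kind was named. Probe sets at 100 or more on either array were kept, each gene was read from its brightest probe set by mean log2(signal + 16), and a call is a 2-fold difference on that scale. With 1 array per group nothing was tested. Named genes are the fixed names of the rule, all SNHG genes, up to 12 LINC genes called at each end, the 4 brightest LINC genes, those beside the limit, and up to 2 at each end of each list; LINC00662, LINC00205, LINC01000, LINC00847, LINC01089, ZFP62, SETD1B, TRAF7, RAB26, IFNE, CCDC80 and LMCD1 were chosen after their values were seen. Members and lists were chosen with earlier results of these data known. Neighbours, promoters and microRNAs come from RefSeq tables of GRCh38.p14; seed matches in the transcripts were not analysed here. Code was tested on simulated data. The tools were pandas 2.3.3 and numpy 2.4.6 under Python 3.11.15, with matplotlib 3.10.9 for figures and statsmodels 0.14.6 for the loess alternative.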

Additional observations from a re-analysis of the deposited data

Results flagged for a closer look

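Probe sets that carry several symbols, of which 1 or more is a LINC, SNHG or fixed host gene name, enter no comparison above, because the signal cannot be given to 1 gene. They also carried signal. Of 94, 52 reached 100 on either array. In the miR-129-3p cells 5 of these were higher by 2-fold or more, while 1 was lower by that much. Of all named genes at the limit, 7.85% were higher and 4.59% lower by that much, counted by gene and not by probe set. Whether the counts depart from those shares was not tested. The differences of the 52 ran from -1.21 to 2.40, with a median of 0.05.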

How the results depend on the processing

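With 1 array per group, no replicate could be left out, and no paired analysis was possible because each group holds a single array. The count of genes called higher, 5, and that of genes called lower, 9, became 3 and 5 with 64 added to each signal, 3 and 4 with a floor of 100, 3 and 4 with a limit of 200, 13 and 23 at 1.5-fold, 2 and 4 at 3-fold, and 3 and 4 with 100 required on both arrays, which was added after seeing the data. The shares of all named genes called higher and lower were then 6.36% and 3.75% with 64 added, 6.99% and 4.24% with the floor, 8.92% and 5.37% at the limit of 200, 17.4% and 10.8% at 1.5-fold, 3.71% and 1.75% at 3-fold, and 6.18% and 4.31% with both arrays required. Fewer genes (57) remained at a limit of 200 and 114 with both arrays required. The median of the noncoding genes stayed below 0 under all alternatives tried, between -0.18 and -0.11 where the same number of 166 genes entered, -0.07 over 856 genes with no limit, and -0.20 both with a limit of 200 and over 165 genes after quantile normalization. The median of the SNHG genes turned to 0.016 without _x_at and _s_at probe sets, and under that setting the paraspeckle list stood at 0.10; the nuclear speckle list stood at 0.049 with the mean of all probe sets. Of the 14 calls at 2-fold, 5 held in every alternative that gave them a value, fold limits apart: DANCR, SNHG19, SNHG33, LINC00973 and LINC01279. All 5 read above 100 on both arrays, so the floor and the other signal limits could not change their values. All but SNHG33 have 1 probe set, so the choice of probe set could not either. That they held under those settings was fixed beforehand. LINC00475 fell under the limit with the mean of its probe sets (0.55). Without LINC01279 and LINC00312, also chosen later, 7 genes were called lower, where 4.59% of all named genes were. Median centring, loess and quantile normalization left 5 called higher and 7 to 9 lower. The shares of all named genes were then 7.66% and 4.78%, 7.39% and 4.96%, and 7.16% and 5.21%, in that order. Dim signals limit the precision: 71 of the 166 genes lie between 100 and 150 on the brighter array.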
